A study of Homo sapiens with 6 samples.

Results

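The genes of the proteasome were followed through RNA-seq of MDA-MB-231 cells in which the long noncoding RNA MIR100HG had been knocked down. The members were taken by name, as every row of the count table whose symbol begins with PSM, a letter from A to G and a number, which gave 53 genes of 27745 in the table. Of these, 48 encode subunits, activators, inhibitors or assembly factors of the proteasome, and 5 carry such a symbol by name only (PSMC3IP, PSMB8-AS1, PSMD7-DT, PSME3IP1 and PSMG3-AS1). Genes below 5 counts in 3 or more of the 6 samples were removed, which left 50 members to test and took out PSMA8, PSMB11 and PSMD7-DT.

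MDA-MB-231 is a human triple-negative breast cancer cell line. The cells were infected with lentivirus carrying one of 2 short hairpin RNAs against MIR100HG, sh-MIR100HG-1 or sh-MIR100HG-2, or the control sh-TRC. The study gives pLKO.1 as the vector of the MIR100HG hairpins. It names the control only as sh-TRC with a catalogue number and does not say whether it expresses a hairpin. Each of the 3 groups had 2 samples, and all came from 1 cell line. The study calls the samples of each MIR100HG hairpin biological replicates, and the labels number the samples of a group but do not say how any were grown, so p-values measure only the spread between these samples, which for the controls may in part be technical.

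The 26S proteasome degrades proteins that carry ubiquitin chains. Its 20S core is a stack of rings built from alpha subunits (PSMA genes), which gate the entry, and beta subunits (PSMB genes), of which PSMB5, PSMB6 and PSMB7 carry the chymotrypsin-like, caspase-like and trypsin-like activities. The 19S regulatory particle holds a ring of ATPases (PSMC genes) that unfold substrates and non-ATPase subunits (PSMD genes) that bind and remove ubiquitin. In cells exposed to interferon gamma, PSMB8, PSMB9 and PSMB10 replace PSMB5, PSMB6 and PSMB7 to form the immunoproteasome, and the PA28 activator made of PSME1 and PSME2 is induced with them. The peptides made in this way are loaded on HLA class I molecules.

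The promoter sequences of the members, the interferon-inducible ones among them, were searched for short motifs. A link between these motifs and the levels was not tested. RefSeq promoters (GRCh38.p14, from 250 bases before to 50 after the start) were matched for 47 of the 53 members. No entry was matched for PSMA7, PSMB1, PSMB6, PSMB7, PSMD4 and PSMG3. The core of the interferon-stimulated response element, spelled GAAA, any 2 bases and GAAA again and searched on both strands, was found in 996 of 27305 promoters of this length (3.6%) and in 7 of the 47 (14.9%). Those 7 were PSMB10, PSME1, PSME2, PSMB8-AS1, PSMG4, PSMA4 and PSMB4. Thus 3 of the 5 interferon-inducible subunit genes held it, and PSMB8 and PSMB9 did not. The gamma-activated site, TTCNNNGAA, was found in 0 of these 5 and in 7.9% of all promoters. The kappaB core, GGGA followed by any 4 bases and CC, was found in 1 of the 5 and in 25.1% of all. The stretches around the match are shown for the genes whose match has the same 10 letters, with the match in capitals. In PSME1 the match is on the other strand and so reads as its reverse complement, and it starts 6 bases after the transcription start.
PSMB10, chr16:67936851-67936901, minus strand: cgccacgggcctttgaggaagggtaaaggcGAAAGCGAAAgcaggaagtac
PSME2, chr14:24146611-24146668, minus strand: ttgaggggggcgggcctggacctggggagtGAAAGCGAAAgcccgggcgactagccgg
PSME1, chr14:24136189-24136218, plus strand: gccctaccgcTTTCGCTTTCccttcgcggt
PSMB8-AS1, chr6:32844012-32844081, plus strand: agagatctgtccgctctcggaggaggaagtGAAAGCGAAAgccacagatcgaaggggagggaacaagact
PSMG4, chr6:3258884-3258946, plus strand: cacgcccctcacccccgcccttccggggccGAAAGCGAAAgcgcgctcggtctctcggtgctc

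The constitutive subunit genes differed among themselves in another motif. The ETS core CCGGAAG, searched on both strands, was found in 2913 of 27305 promoters (10.7%), in 9 of the 16 promoters of 19S subunits (56.2%) and in 0 of the 10 promoters of 20S core subunits. The 9 genes were PSMC1, PSMC2, PSMC6, PSMD6, PSMD7, PSMD8, PSMD12, PSMD13 and PSMD14. The stretches of 3 of them are shown with the motif in capitals, PSMD8 and PSMD12 on the other strand.
PSMD13, chr11:236934-236975, plus strand: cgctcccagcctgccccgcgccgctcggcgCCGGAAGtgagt
PSMD8, chr19:38374524-38374570, plus strand: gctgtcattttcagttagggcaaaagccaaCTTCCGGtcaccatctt
PSMD12, chr17:67366578-67366615, minus strand: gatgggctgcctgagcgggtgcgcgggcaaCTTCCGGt
The CCAAT box was found in 14 of the 26 constitutive subunit promoters (53.8%) against 35.7% of all, and GGGCGG, the SP1 box, in 18 (69.2%) against 44.6%. TGACNNNGC, the core of the antioxidant response element that NFE2L1 and NFE2L2 bind, was found in 5 of the 26 (19.2%) against 13.6%. These matches describe letters in a window and show no binding.

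Total counts ranged from 43804736 to 64588388 per sample. MIR100HG was at 41.9 and 58.5 CPM (counts scaled to library size after TMM normalization) in the sh-TRC samples, 15.2 and 13.2 with sh-MIR100HG-1 and 16.6 and 10.4 with sh-MIR100HG-2, so all 4 knockdown samples were below both controls, as the labels say. Its log2FC over both shRNAs was -1.86, with an adjusted p of 0.381. Tests were quasi-likelihood tests of edgeR, Benjamini-Hochberg adjusted over 15372 genes, and called 0 genes in any of the 4 comparisons made. The line's markers VIM and CD44 were high (1607 to 2095 and 538 to 957 CPM) and PGR was at or near 0, while CLDN4 (177 to 331 CPM) and ERBB2 (71.6 to 116 CPM) were present. Of 7 matched markers of immune cells, blood and liver, PTPRC, CD3E, MS4A1, ALB and HBB stayed below 1 CPM in every sample, and the summed level of all 7 was 1.63 to 7.41 CPM. CD14 was at 1.09 to 4.32 CPM.

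The first question was how strongly each subunit gene was expressed in these cells. Levels were compared per length, as CPM per kb of the canonical transcript in the 2 sh-TRC samples. Among the 31 constitutive 20S and 19S subunit genes, PSMA7, an alpha-ring subunit, was highest at 358 ± 26.9 (SD, n = 2). PSMD2, the large scaffold of the 19S base, followed at 251 ± 10.3, and PSMB4, a non-catalytic beta subunit, at 226 ± 37.1. The median of the 31 genes was 89.98 CPM per kb. In this order, the control ranges of 20 of 30 neighbouring pairs overlapped, for example PSMB4 and PSMB7, or PSMC5 and PSMC4, and 10 pairs stood apart, among them PSMA7 and PSMD2. The order depends on the length used. Per kb of the deposited gene length, PSMA7 (197) and PSMD2 (134) were still highest, but PSMB7 (122) stood above PSMB4 (96.0).

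The 3 lowest constitutive genes were alpha subunits, PSMA2 at 2.16 ± 0.150, PSMA6 at 7.78 ± 0.367 and PSMA1 at 21.2 ± 2.22 CPM per kb. These genes share most of their canonical exon bases with a readthrough gene on the same strand (54.5% for PSMA2, 81.4% for PSMA6 and 67.0% for PSMA1). The readthrough genes themselves had between 0 and 5 counts in any sample, and how reads in shared exons were assigned is not given in the sources used here. The levels of these 3 genes are therefore uncertain, and PSMC1 (83.2% shared with NRDE2 on the opposite strand) and PSMB10 (56.1%) are uncertain in the same way. Without the genes sharing over 50% of their canonical bases, the 27 constitutive genes left ran from 24.6 CPM per kb for PSMD12 to 358 for PSMA7, a 14.6-fold range. With the deposited gene lengths they ran from 12.1 for PSMC6 to 197 for PSMA7, a 16.3-fold range.

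**Figure D1:**
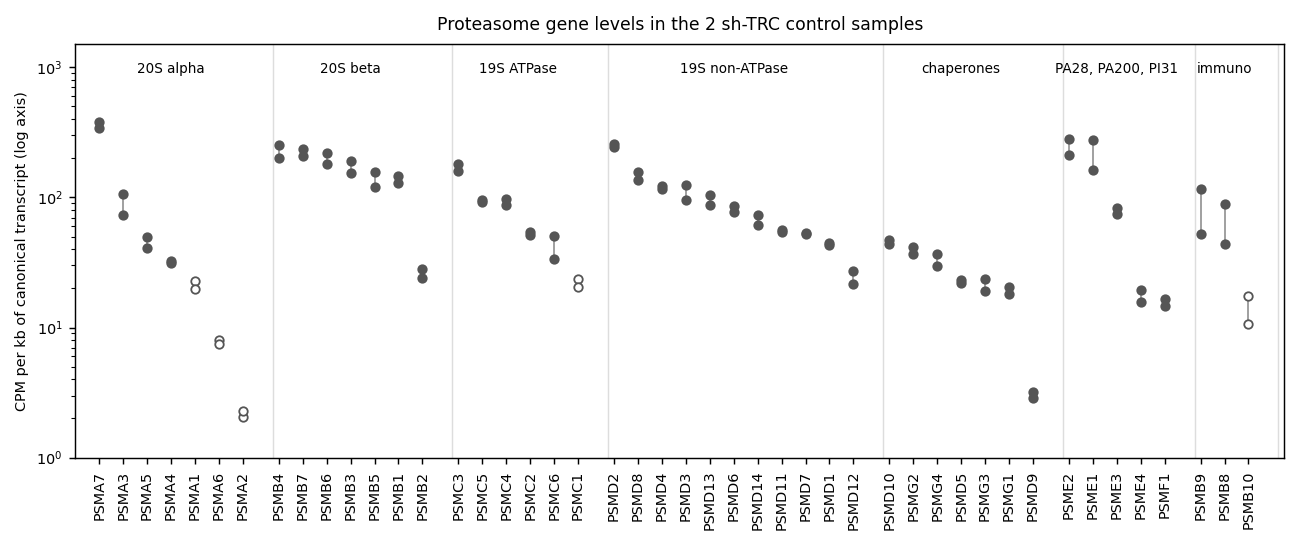
Levels of the tested proteasome genes in the sh-TRC control, without the members by name only, on a log axis of CPM per kb of canonical transcript, grouped by subcomplex. Each point is 1 of the 2 samples, a line joins the pair, and open points mark genes that share over 50% of their canonical exon bases with another gene. PSMA7 stands at the top of the alpha group and PSMA2 at 2.16 CPM per kb at the bottom, and the pairs of PSMB8, PSMB9, PSMB10 and PSME1 are the most widely separated.

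The 7 assembly chaperones stood below most subunits. PSMD10 (gankyrin) was highest at 45.4 ± 2.67 CPM per kb and PSMD9 lowest at 3.03 ± 0.228. PSMD9 shares 44.8% of its canonical exon bases with other genes on the same strand, so its level is uncertain too. The PSMG genes, which assemble the alpha ring, lay between 19.4 (PSMG1) and 39.0 (PSMG2). Among the activators, the PA28 subunits PSME1 (221 ± 80.7) and PSME2 (246 ± 47.9) were near the highest constitutive subunits. PSME3, the nuclear PA28 gamma, was at 78.7 ± 5.94, PSME4, the activator PA200, at 17.4 ± 2.56, and PSMF1, the inhibitor PI31, at 15.6 ± 1.31. The tissue-specific subunits were at the limit of detection. PSMB11, the thymus-specific catalytic subunit, had 0 counts in all 6 samples, where a count of 0 allows up to 0.0452 to 0.0708 CPM by counting error alone, and PSMA8, the testis alpha subunit, had 4 counts in sh-TRC replicate 1 and 0 elsewhere.

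The second question was whether knockdown of MIR100HG went with a difference in these genes. Over both shRNAs, 0 of 50 members passed an adjusted p of 0.05, against a background of 0% of all genes tested. At an unadjusted p under 0.05, 1 of the 50 passed, or 2.0%, below the 7.68% of all genes, and 3 passed without sh-MIR100HG-2 replicate 1 or without sh-TRC replicate 1. Of the 31 constitutive subunit genes, 28 had a log2FC above 0 and 3 below (PSMA2, PSMA3 and PSMC3), with a median of 0.13, where 45.6% of all genes were above 0 and 54.4% below, and their median was -0.04. With upper-quartile scaling the constitutive split was 23 above and 8 below. The 95% interval lay within -1 and 1 for 30 of the 31, the exception being PSMA2, against 57.7% of all genes. All 31 adjusted p-values were between 0.673 and 0.995.

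The non-ATPase subunits of the 19S particle bind and process ubiquitin chains and include those of the lid. The 11 that the symbol rule took all had a log2FC above 0 over both shRNAs. Their median was 0.20, with a range from 0.15 (PSMD4, a ubiquitin receptor) to 0.41 (PSMD11), and each gene's adjusted p was at least 0.673 by edgeR. SEM1 and ADRM1, 19S subunits under other symbols, are among the 27 partner genes counted below. With sh-MIR100HG-2, 21 of those 27 were above 0 and 6 below, and SEM1 was lowest at -0.26. PSMD11, a lid subunit (GRCh37 chr17:30771279-30810336, plus strand), was at 217 and 209 CPM in sh-TRC, 241 and 301 with sh-MIR100HG-1 and 258 and 332 with sh-MIR100HG-2. Every knockdown sample lay above both controls, with a log2FC of 0.41 ± 0.20 (SE, adjusted p = 0.673 by edgeR). PSMD7, which pairs with the deubiquitinase PSMD14 in the lid, was at 84.7 and 87.5 CPM in control, 91.2 and 106 with sh-MIR100HG-1 and 107 and 111 with sh-MIR100HG-2, again without overlap (log2FC 0.27 ± 0.18, adjusted p = 0.760 by edgeR). Over both shRNAs, all 11 genes stayed above 0 with each sample left out in turn and with size factors of DESeq2. They also did with upper-quartile scaling, which lowered the median of all genes to -0.10 and that of the 11 genes to 0.14. Each hairpin alone was less stable. With sh-MIR100HG-1, 8 were above 0 and 3 below under upper-quartile scaling, and 6 and 5 without replicate 2 of that group. With sh-MIR100HG-2, 9 were above 0 and 2 below without sh-TRC replicate 2.

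The beta subunits of the core were above 0 in 7 of 7 genes over both shRNAs, but by less, with a median of 0.12 and a range from 0.04 (PSMB6) to 0.19 (PSMB1). Without sh-TRC replicate 1 their median was -0.04 and 5 of the 7 were below 0, so the direction rested on that control. With upper-quartile scaling PSMB6 alone was below 0. The alpha subunits had a median of 0.04, with 5 above 0 and 2 below, which turned to -0.03, with 2 above and 5 below, under upper-quartile scaling. The ATPases had a median of 0.12, with 5 above 0 and 1 below (4 and 2 under upper-quartile scaling).

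Over all members, the values of the knockdown and control samples did not overlap for 6 of 50 genes, or 12%, against 17.5% of all genes tested. The 4 higher ones were PSMC1, PSMD7, PSMD11 and PSMF1, where 8.4% of all genes were higher in this way, and the 2 lower ones were PSMD10 and PSMG3-AS1, against 9.08%. PSMD10, an assembly chaperone of the 19S base, was at 63.9 and 69.5 CPM in control, 43.5 and 56.6 with sh-MIR100HG-1 and 53.4 and 58.9 with sh-MIR100HG-2 (log2FC -0.33 ± 0.19, adjusted p = 0.718 by edgeR). The other 6 chaperones had log2FC between -0.19 (PSMG3) and 0.15 (PSMG1), and PSMG2 and PSMG4 stood at 0.08 and 0.14.

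PSMG3-AS1 was the single member with an unadjusted p under 0.05 over both shRNAs. It is a long noncoding RNA gene (GRCh37 chr7:1609709-1629262, plus strand) that overlaps the chaperone gene PSMG3 on the opposite strand over 0.94% of its exon bases. Its level was 6.26 and 5.56 CPM in sh-TRC, 2.88 and 3.49 with sh-MIR100HG-1 and 3.11 and 2.996 with sh-MIR100HG-2. The knockdown samples lay below both controls, with a log2FC of -0.92 ± 0.28 (adjusted p = 0.529 by edgeR). PSMG3 itself was at 27.4 and 33.8 CPM in control and at 23.6 to 28.3 CPM in the 4 knockdown samples (log2FC -0.19 ± 0.20, adjusted p = 0.861 by edgeR).

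PSMA2 was lower in 3 of the 4 knockdown samples. It was at 2.94 and 3.25 CPM in control, 1.67 and 1.18 with sh-MIR100HG-1, and 3.17 and 1.08 with sh-MIR100HG-2, where the replicates disagreed by more than the groups did (log2FC -0.83 ± 0.46, adjusted p = 0.708 by edgeR, and -1.31 without sh-MIR100HG-2 replicate 1 or -0.54 without replicate 2). Its exons are shared as described above. Among the remaining activators and the inhibitor, PSME4 had a log2FC of 0.41 ± 0.28, PSME3 of 0.17 ± 0.17 and PSMF1 of 0.22 ± 0.18, with adjusted p-values of 0.775, 0.852 and 0.807 by edgeR.

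**Figure D2:**
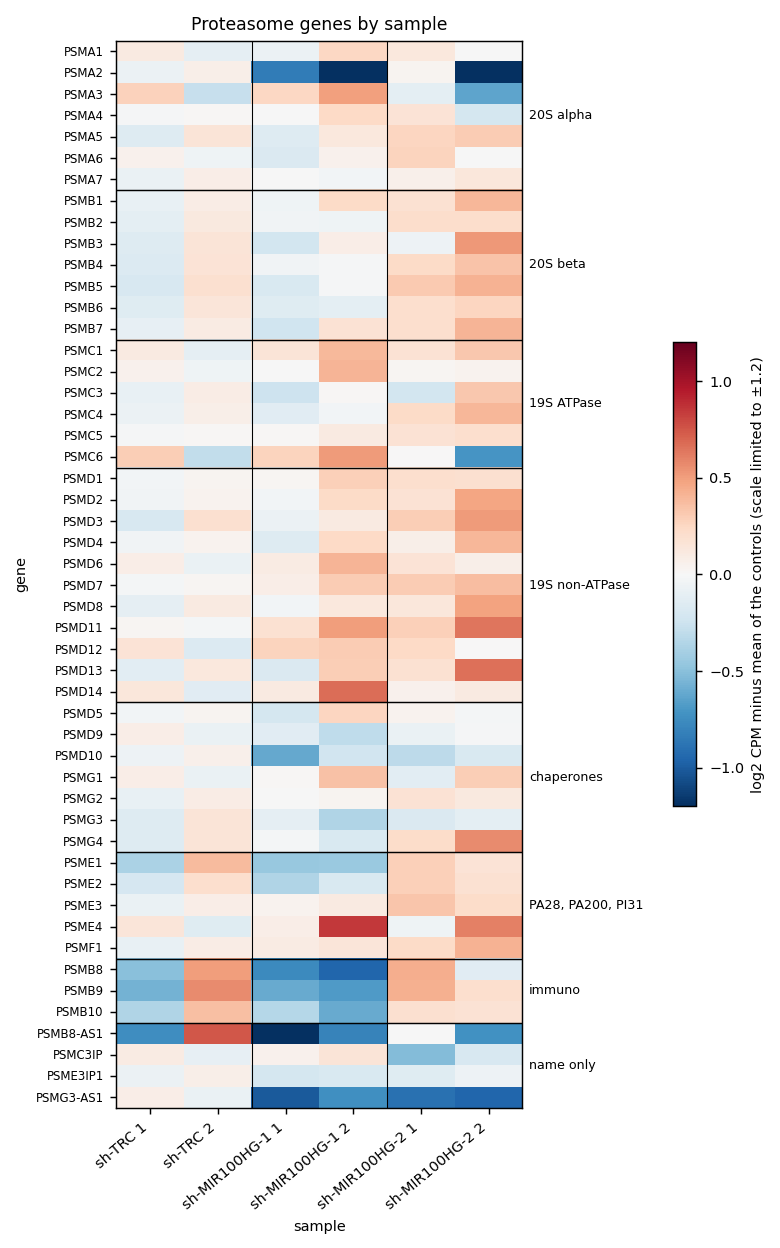
Level of each of the 50 tested members in each sample (columns) as log2 CPM minus the mean of the sh-TRC samples, red above and blue below, with the colour scale limited to 1.2 either way. The non-ATPase block is pale to mid red in most knockdown samples, PSMG3-AS1 is blue in all 4, and the rows of PSMB8, PSMB9, PSMB10, PSME1 and PSME2 are split within the control pair.

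Each shRNA was then compared with the control, and the 2 comparisons share the sh-TRC samples. The first hairpin put 19 of the 31 constitutive genes above 0 and 12 below, with a median of 0.06, where 49.7% of all genes were above 0. The second put 27 above and 4 below, with a median of 0.22, where 45.8% of all genes were above 0. Neither comparison called a member at an adjusted p of 0.05 (background 0% in both). At an unadjusted p under 0.05 there were 2 of 50 with sh-MIR100HG-1, PSMB8 and PSMG3-AS1, or 4.0% against 6.87% of all genes, and 1 with sh-MIR100HG-2, PSMG3-AS1, or 2.0% against 8.86%. With each sample left out in turn these counts ran from 0 to 5 and from 0 to 3. The first was 0 without sh-MIR100HG-1 replicate 2 or sh-TRC replicate 2 and 5 without sh-TRC replicate 1. The second was 0 without sh-MIR100HG-2 replicate 2 or sh-TRC replicate 1 and 3 without sh-TRC replicate 2. With sh-MIR100HG-1 the median turned to -0.06 without replicate 2 of that group and to -0.01, with 15 above 0 and 16 below, with upper-quartile scaling.

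The 2 sh-MIR100HG-2 samples stood above both controls for 18 of the 31 constitutive genes, or 58.1%, against 18.1% of all genes tested, and below both for 0, against 20.4%. This held for 8 of 11 non-ATPase subunits, 6 of 7 beta subunits and 3 of 6 ATPases, but for 1 of 7 alpha subunits. PSMD3, a lid subunit, was at 206 and 268 CPM in control and 287 and 334 with sh-MIR100HG-2 (log2FC 0.39 ± 0.22, adjusted p = 0.641 by edgeR). PSMD13 was at 140 and 167 CPM in control and 173 and 242 with sh-MIR100HG-2 (log2FC 0.43 ± 0.26, adjusted p = 0.653 by edgeR). The log2FC of PSMD13 was 0.17 without sh-MIR100HG-2 replicate 2, and that of PSMD3 was 0.21 without sh-TRC replicate 1. With sh-MIR100HG-1 the same count of genes above both controls was 5 of 31, or 16.1%, against 20.3% of all genes.

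The catalytic subunits PSMB5, PSMB6 and PSMB7 followed this order. PSMB5 was at 125 and 163 CPM in control, 126 and 142 with sh-MIR100HG-1 and 178 and 191 with sh-MIR100HG-2. PSMB6 was at 148 and 180 CPM, 148 and 151, and 188 and 194 in the same order, and PSMB7 at 203 and 232, 184 and 245, and 250 and 289. For all 3 genes the sh-MIR100HG-2 samples were above the other 4, with log2FC against control of 0.36 ± 0.22, 0.22 ± 0.21 and 0.31 ± 0.23 and adjusted p-values of 0.658, 0.761 and 0.700 by edgeR.

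**Figure D3:**
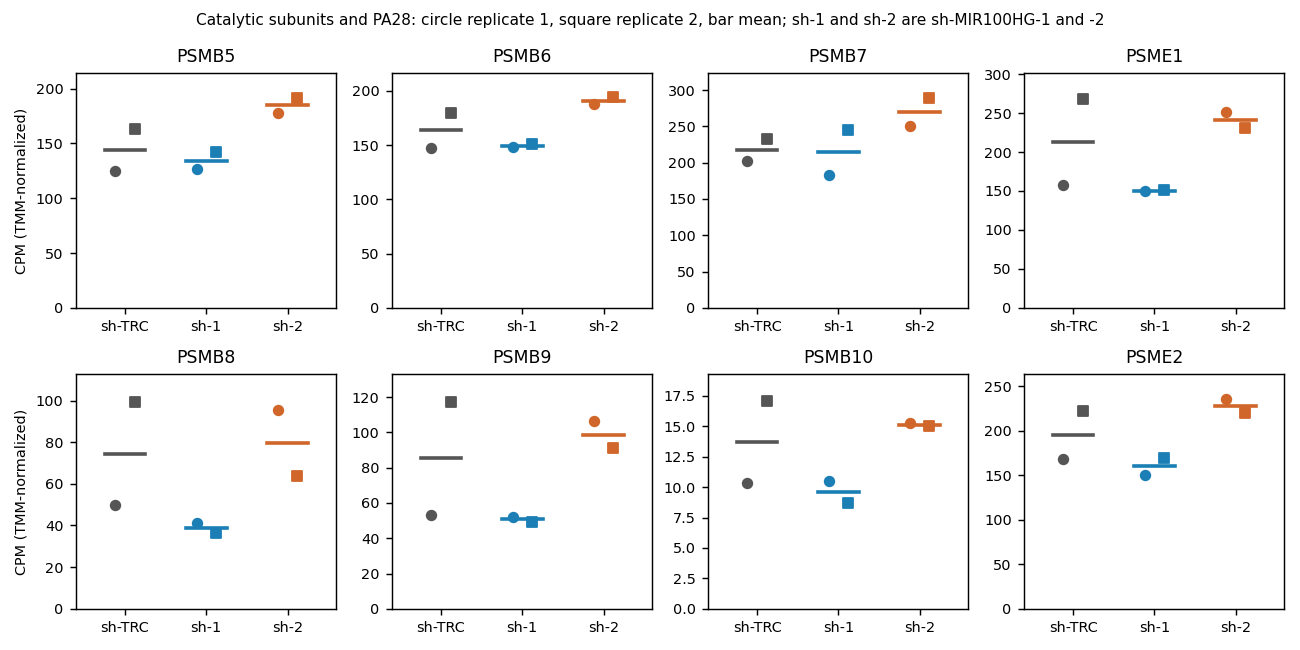
CPM of the constitutive catalytic subunits PSMB5, PSMB6 and PSMB7, the immunoproteasome subunits PSMB8, PSMB9 and PSMB10, and the PA28 subunits PSME1 and PSME2, with each replicate as a point and the group mean as a bar, on linear axes from 0. In the 5 interferon-inducible genes sh-TRC replicate 2 lies above replicate 1, and both sh-MIR100HG-2 samples lie above both sh-MIR100HG-1 samples.

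The interferon-inducible subunits differed more between samples than the constitutive ones, and the controls themselves disagreed. PSMB8 (GRCh37 chr6:32808494-32812480, minus strand) was at 49.7 and 99.3 CPM in sh-TRC replicates 1 and 2, 41.3 and 36.3 with sh-MIR100HG-1 and 95.2 and 63.8 with sh-MIR100HG-2. PSMB9, its neighbour in the HLA region (chr6:32811913-32827362, plus strand), was at 53.4 and 118 CPM in the controls, 51.9 and 49.4 with sh-MIR100HG-1 and 106 and 91.1 with sh-MIR100HG-2. For both genes the sh-MIR100HG-1 samples were below all 4 others, and the sh-MIR100HG-2 samples lay between the 2 controls. PSMB10, on chromosome 16, was at 10.3 and 17.1, 10.5 and 8.69, and 15.3 and 15.02 CPM in the same order.

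The PA28 genes, both on chromosome 14, were also lower with sh-MIR100HG-1 than with sh-MIR100HG-2. PSME1 was at 158 and 268 CPM in the controls, 150 and 151 with sh-MIR100HG-1 and 252 and 230 with sh-MIR100HG-2. PSME2 was at 168 and 222 CPM, 151 and 170, and 235 and 220. All 5 genes were higher in sh-TRC replicate 2 than in replicate 1, by a median of 0.76 on the log2 scale, where the median absolute difference between the controls over all genes was 0.32. In bulk RNA a smaller number of cells expressing a gene and less RNA per cell cannot be told apart.

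Against the control, the median log2FC of the 5 genes was -0.52 with sh-MIR100HG-1, with 5 of 5 below 0 where 50.3% of all genes were, and 0.18 with sh-MIR100HG-2, with 5 of 5 above 0. PSMB8 had the largest difference with sh-MIR100HG-1, a log2FC of -0.94 ± 0.35 (adjusted p = 0.714 by edgeR), and PSMB9 followed at -0.75 ± 0.34 (adjusted p = 0.722 by edgeR). These values depended on sh-TRC replicate 2. Without it the median against sh-TRC was -0.08 for the first hairpin and 0.61 for the second, and over both shRNAs it turned from -0.19 to 0.22. The values of PSMB8 and PSMB9 with sh-MIR100HG-1 were then -0.36 and -0.08. Without sh-TRC replicate 1 the medians were -0.84, -0.18 and -0.51 in the same order.

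In the comparison of the 2 shRNAs the controls entered the estimate of the spread, since the 3 groups were fitted together, but hardly the log2FC. Of the 50 members, 6 had an unadjusted p under 0.05, or 12%, against 9.45% of all genes, and 0 passed an adjusted p of 0.05 (background 0%). With each sample left out in turn the count of 6 ran from 0, without sh-MIR100HG-1 replicate 2, to 7, without either control, and it was 2 or 3 without any of the other 3 samples. The 4 higher with sh-MIR100HG-2 were PSMB8 (log2FC 1.04 ± 0.35), PSMB9 (0.96 ± 0.35), PSME1 (0.68 ± 0.27) and PSME2 (0.51 ± 0.22), with adjusted p-values from 0.509 to 0.526 by edgeR, where 3.34% of all genes were higher at this p. PSMB10 stood at 0.66 ± 0.31 (adjusted p = 0.545 by edgeR). The 2 lower were PSMA3 and PSMC6, against 6.12% of all genes. The sh-MIR100HG-2 samples lay above both sh-MIR100HG-1 samples for 5 of the 5 interferon-inducible genes, where 20.6% of all genes did. With each sample left out in turn the median of the 5 genes stayed between 0.65 and 0.80. With no filter on low counts, PSMB8 and PSMB9 passed the threshold, with adjusted p-values of 0.0110 and 0.0216 by edgeR. They were 2 of at most 53 members, beside 679 genes called of at most 27745 in the table.

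PSMA3, an alpha subunit, and PSMC6, an ATPase of the 19S base, varied in the opposite way, also within the controls. PSMA3 was at 102 and 69.8 CPM in sh-TRC, 100.2 and 119 with sh-MIR100HG-1 and 77.7 and 54.4 with sh-MIR100HG-2. PSMC6 was at 108 and 72.3, 107 and 126, and 88.5 and 54.0 CPM. Both genes were lower with sh-MIR100HG-2 than with sh-MIR100HG-1 without overlap, by a log2FC of -0.73 ± 0.28 and -0.71 ± 0.30 (adjusted p = 0.509 and 0.521 by edgeR). Without sh-MIR100HG-2 replicate 2 these values were -0.49 and -0.39, and without replicate 1 of that group the value of PSMC6 was -1.11. Between the shRNAs, the beta subunits stood higher with sh-MIR100HG-2 in 7 of 7 genes, with a median of 0.32, where 49% of all genes were higher, and PSMB5 at 0.46 ± 0.22 was the largest.

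**Figure D4:**
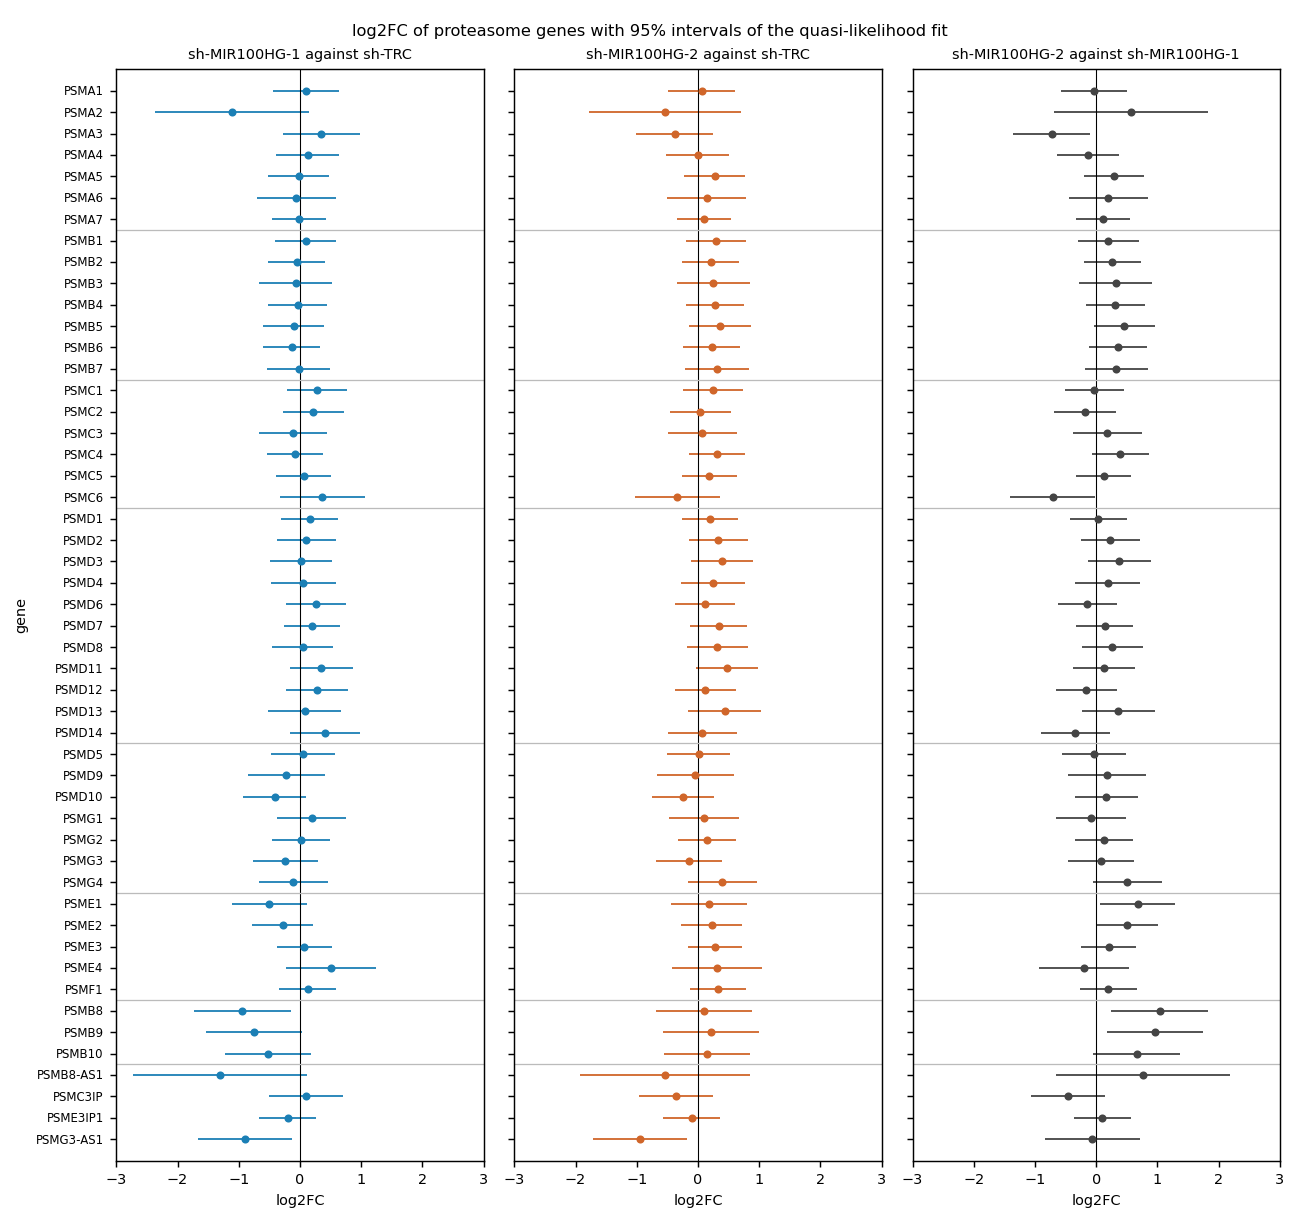
log2FC of the 50 tested members with 95% intervals of edgeR's quasi-likelihood fit, for each shRNA against sh-TRC and for the second shRNA against the first. Most intervals cross 0, and the third panel shows PSMB8, PSMB9, PSME1 and PSME2 to the right of 0 and PSMA3 and PSMC6 to the left.

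The make-up of the catalytic sites was compared on the per-length scale. The ratio of PSMB8 to PSMB5 was 0.368 and 0.565 in the controls, 0.304 and 0.237 with sh-MIR100HG-1 and 0.496 and 0.310 with sh-MIR100HG-2. That of PSMB9 to PSMB6 was 0.293 and 0.530, 0.284 and 0.266, and 0.459 and 0.380. The 3 immunoproteasome genes together made up 17.5% and 26.6% of the summed level of the 6 catalytic subunits in the controls, 16.8% and 13.7% with sh-MIR100HG-1 and 23.9% and 18.5% with sh-MIR100HG-2. The mean of the 4 knockdown samples minus the control mean of 22.1% ± 6.44 (SD, n = 2) was -3.84 percentage points, with p = 0.4 by a two-sided exact permutation test over samples, for which the smallest possible p is 0.0667. Without sh-TRC replicate 2 the difference was 0.718 percentage points in the other direction.

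The HLA class I pathway, to which the immunoproteasome delivers peptides, was compared in the same samples. Of 12 genes of class I antigen processing, 11 were below 0 with sh-MIR100HG-1, 4 of them at an unadjusted p under 0.05 (HLA-B and HLA-C among them), or 33.3% against 6.87% of all genes. With sh-MIR100HG-2, 8 were above 0 and 4 below, with 0 at an unadjusted p under 0.05. Between the shRNAs, 11 were higher with sh-MIR100HG-2 than with sh-MIR100HG-1, 6 of them at an unadjusted p under 0.05, or 50% against 9.45%, and 0 of the 12 passed an adjusted p of 0.05 in any comparison. HLA-B, which presents peptides, was at 590 and 1866 CPM in the controls, 540 and 483 with sh-MIR100HG-1 and 1955 and 1024 with sh-MIR100HG-2. TAP1, which lies within the span of PSMB9 and carries peptides into the endoplasmic reticulum, was at 151 and 278, 137 and 127, and 333 and 210 CPM, and its partner TAP2 at 64.7 and 83.1, 60.9 and 49.1, and 88.3 and 53.7. These genes too were higher in sh-TRC replicate 2 than in replicate 1, in 11 of 12 cases. The part of this difference between the controls in the comparisons was not tested. The defining markers of immune cells PTPRC and CD3E were below 1 CPM in every sample.

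PSMB8-AS1, an antisense RNA gene that overlaps PSMB8, PSMB9 and TAP1, was at 1.14 and 3.43 CPM in the controls, 0.768 and 1.09 with sh-MIR100HG-1 and 1.98 and 1.16 with sh-MIR100HG-2. Over both shRNAs its log2FC was -0.92 ± 0.51 (adjusted p = 0.706 by edgeR), and without sh-TRC replicate 2 it was 0.08. It shares 54.07% of its exon bases with these 3 genes, and the strand setting of the counting is not given in the sources used here, so its reads cannot be told apart from theirs.

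Genes that work with the proteasome but carry other names were counted in the same way. Of 27 proteasome-associated and ubiquitin genes, 20 had a log2FC above 0 over both shRNAs and 7 below, with a median of 0.17, and 0 passed an adjusted p of 0.05. ECPAS, an adaptor that binds the 26S proteasome, was the 1 gene of the 27 at an unadjusted p under 0.05, or 3.7%, below the 7.68% of all genes. It was at 199 and 198 CPM in control, 251 and 304 with sh-MIR100HG-1 and 255 and 256 with sh-MIR100HG-2 (log2FC 0.42 ± 0.18, adjusted p = 0.642 by edgeR). NFE2L1, the factor that induces proteasome subunit genes when proteasome activity is short, was at 566 and 560 CPM in control, 557 and 647 with sh-MIR100HG-1 and 635 and 813 with sh-MIR100HG-2 (log2FC 0.23 ± 0.19, adjusted p = 0.813 by edgeR). Of the genes that process NFE2L1, the protease DDI2 stood at 0.46 and the glycosidase NGLY1 at 0.46, with replicates of NGLY1 at 32.2 and 66.3 CPM within sh-MIR100HG-1.

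For scale, the other large protein complexes were set beside the subunits. The 83 tested genes of the cytosolic ribosome had a median log2FC of 0.03 over both shRNAs, with 50 above 0, and the 78 of the mitochondrial ribosome 0.02, with 44 above 0, while the 31 constitutive subunit genes had 0.13. Between the 2 shRNAs, sh-MIR100HG-2 over sh-MIR100HG-1, the medians were 0.13, 0.23 and 0.19 in the same order. These medians are descriptions, and the difference between the complexes was not tested.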

How the data were processed

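Raw read counts for each gene were deposited by the authors, without normalization. Per the labels, total RNA was isolated with TRIzol and sequenced by standard Illumina protocols, and the submitters' processing notes name STAR 2.5.2a and GRCh37. By the methods of the study, the authors removed barcodes, mapped the reads with STAR and the GENCODE annotation of that build and counted them over exons with FeatureCounts. The strand setting and the treatment of reads in shared exons are not given in the sources used here.

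Symbols came from GENCODE version 44 lifted to GRCh37, which matched 26966 of 27745 genes. Of the members, 17 have pseudogenes named after them, 44 in all, whose reads may be split from or added to theirs. From the deposited counts, 15372 genes were kept and fitted in edgeR 4.0.16 (R 4.3.3) by glmQLFit with TMM scaling, the 3 groups in 1 model, and tested by glmQLFTest, with residual df of 3, prior df of 5.37 and a common biological coefficient of variation of 27.8%. P-values were adjusted by Benjamini-Hochberg over all of them, and called at 0.05. Comparisons were both shRNAs against control, each shRNA against control, and one shRNA against the other. Alternatives were the likelihood ratio test, DESeq2 1.42.0, its size factors, upper-quartile scaling, no filter on low counts, the bias-adjusted fit, other sample sets, a replicate block and each sample left out. The study describes its edgeR test as quasi-likelihood but names glmLRT, the function of the likelihood ratio test. It reports genes with significant changes. Standard errors were the size of the log2FC divided by the square root of the F statistic of edgeR. The script was tested on simulated data. A pseudocount of 0.125 CPM was used on the log2 scale. Intervals and limits cover 95% and, for counts of 0, 3 counts. Catalytic shares were compared by an exact permutation test over samples (Python 3.11.15).

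Genes were named by rule: catalytic subunits, activators, inhibitor, PSMG chaperones and tissue-specific subunits; the 5 members with the smallest p in each comparison; the 3 highest and 3 lowest constitutive subunits; NFE2L1, TAP1, TAP2 and listed partner genes at an unadjusted p under 0.05; and the 5 genes most like each group in profile. A few genes that these rules name are not reported here. PSMD8, PSMD12 and PSMD4, PSMD7 over both shRNAs, DDI2, NGLY1, SEM1 and ADRM1 were named after their values or motifs were seen. The members and lists were chosen with earlier results of these data known.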

Additional observations from a re-analysis of the deposited data

How the results depend on the processing

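The number of proteasome genes called stayed 0 in every comparison against control, under the likelihood ratio test, DESeq2, its size factors, no filter on low counts, the bias-adjusted fit and other sample sets, and with each sample left out in turn (0 to 0). The exception was sh-MIR100HG-2 against sh-MIR100HG-1 with no filter on low counts. It called 2 of at most 53 members, PSMB8 and PSMB9, beside 679 of at most 27745 genes in all. The cause was not tested. Over all genes and both shRNAs, the likelihood ratio test called 109, DESeq2 130 and the fit with no filter 392, against 0. MIR100HG passed the threshold under the likelihood ratio test, DESeq2 and no filter. Upper-quartile scaling moved the median log2FC of all genes from -0.04 to -0.10 over both shRNAs and that of the constitutive subunits from 0.13 to 0.06. With each sample left out in turn, the constitutive median ran from 0.08 to 0.19 over both shRNAs, and the interferon-inducible median from -0.51 to 0.22. The log2FC of PSMB8-AS1 over both shRNAs ran from -1.51 to 0.084, and the difference in immunoproteasome share from -8.39 to 0.718 percentage points, both reversing without sh-TRC replicate 2. The share difference was -3.42 with the deposited gene lengths, -4.18 without gene length and -4.59 without PSMB7 and PSMB10. The first and last of these were chosen after seeing the data.

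The replicate numbers did not pair the controls with the knockdown samples. Correlations of same-numbered deviations were -0.213 between sh-TRC and sh-MIR100HG-1 and 0.0219 between sh-TRC and sh-MIR100HG-2. Between the 2 MIR100HG hairpins the correlation was 0.497, so their same-numbered samples varied partly together. The main fit did not use this. With the replicate block, 0 proteasome genes were called in any comparison, and 2, 3, 2 and 7 had an unadjusted p under 0.05 over both shRNAs, with sh-MIR100HG-1, with sh-MIR100HG-2 and between the shRNAs. With the control numbers crossed, 0 were called and these counts were 2, 4, 1 and 5, an alternative added after seeing the data. Depth did not limit the constitutive subunits, and PSMA8, PSMB11 and PSMD7-DT were at its limit.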

Other observations

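Genes whose profile over the 6 samples was most like that of the proteasome genes are given as a description, by Pearson's r of log2 CPM with the mean profile of each group over 15322 genes that are not members. The samples share libraries and few points, and 32 genes had an r over 0.95 with the constitutive subunits and 188 with the interferon-inducible ones. For the 31 constitutive subunits the nearest genes included NUP214 (r = 0.995), VPS37A (0.988), HUWE1 (0.985) and ZNF627 (0.979), and MIR100HG stood at -0.588. HUWE1 is a large ubiquitin ligase and NUP214 a protein of the nuclear pore. For the 5 interferon-inducible subunits they were CD74 (0.999), LY6E (0.996), HLA-C (0.996), HYAL2 (0.996) and FHIT (0.995), with MIR100HG at 0.267. CD74 is the invariant chain of HLA class II molecules and LY6E an interferon-induced surface protein.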
